A study of Mus musculus with 4 samples.

Results

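The genes described here are the nuclear genes for mitochondrial ribosomal proteins, taken as every gene whose symbol in the platform annotation is Mrpl or Mrps followed by a number. On the array, 127 probe sets carried such a symbol and no other, and they stood for 74 genes (47 Mrpl and 27 Mrps symbols on 17 chromosomes) of the 12393 genes that had a probe set with a single symbol. Another 3 probe sets with several symbols were left out. The samples were neural stem cells of the ganglionic eminences in the ventral forebrain, taken from mice at embryonic day 14.5 with a C57/Bl6 background, cultured without serum in medium containing EGF. There were 3 arrays of Olig1 KO cells, called replicates 1, 2 and 3, and 1 array of wild-type cells. Olig1 is a helix-loop-helix transcription factor that acts in oligodendrocyte development. The labels name neither the allele nor its type. In the sample titles KO replicates 2 and 3 carry a number of unstated meaning, while KO replicate 1 and wild type carry none. Whether the 3 KO samples are separate embryos or cultures is not stated in the labels. The p-values therefore rest on a spread among samples that may be technical.

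Mitochondria carry their own ribosome, which makes the few proteins encoded in mitochondrial DNA, all of them membrane subunits of the respiratory chain and ATP synthase. Its RNAs come from mitochondrial DNA, but every one of its proteins is encoded in the nucleus, made in the cytosol and imported. Some of these proteins descend from those of bacterial ribosomes and others were added in mitochondria. Proliferating neural progenitors use both glycolysis and respiration, and loss of mitoribosomal proteins impairs respiration in mammalian cells.

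The values were MAS5 signals, the summary of each probe set on a linear scale, which the authors had scaled to a trimmed mean of about 500.2 in each array, and differences are given as log2(signal + 14.4), KO minus wild type. Where a gene had several probe sets, the brightest stood for it. The 18S and spiked-in controls put the 4 arrays in pairs that cut across genotype, with wild type beside KO replicate 1 and KO replicates 2 and 3 together. Over all kept genes, the SD of the log2 difference was 0.36 for wild type and KO replicate 1. It was 0.51 for KO replicates 2 and 3 and 0.46 for KO replicates 1 and 2. By this measure KO replicate 2 was not nearest to KO replicate 3. The median signal of the 18S ribosomal RNA control probe sets was 7.24, 946 and 2823 in KO replicates 1, 2 and 3, against 4.64 in wild type. The spiked-in control transcripts gave 0.898, 1.89 and 2.75 times the wild-type signal, and the 3'/5' ratio of Actb, a sign of RNA integrity, was 1.25, 1.30 and 1.82 in the KO arrays, against 1.11 in wild type. The single Olig1 probe set gave 3840, 4438 and 8548 in the KO arrays, against 7618 in wild type (log2 difference -0.53, SE 0.48, limma adjusted p = 0.99997). Which part of Olig1 the allele lacks is not given in the sources used here, so its signal is no check of genotype, and KO means the arrays labelled so. Of 12 neural stem cell markers, 11 were above background in all 4 arrays, where background is the highest signal of 27 control probe sets with no target. Their summed signal was 39686, 55257 and 59356 in the KO arrays, against 42654 in wild type. Fabp7 made up most of that difference, with 13667, 25379.6 and 34007 in KO, against 16547 in wild type, while Nes gave 1838, 1666 and 846 in KO, against 1719 in wild type, and Pax6 402, 345 and 133 in KO, against 293 in wild type. Among the other stem cell markers, Slc1a3, Msi1, Prom1, Hes1 and Hes5 were lower in KO replicates 2 and 3 than in wild type. Vim and Notch1 were higher in both of these arrays. Of the same pair of arrays, Sox2 was higher in KO replicate 3 alone and Egfr in KO replicate 2 alone. For neurons, 3 of 6 markers were above background in all arrays, with sums of 1665, 1032 and 1034 in KO, against 2083 in wild type; for astrocytes 3 of 4, with 2258, 1450.0 and 1115 in KO, against 2303 in wild type; and for the oligodendrocyte lineage 3 of 6, with 2189, 2513 and 3914 in KO, against 2315 in wild type. The largest parts of these sums were Map2, S100b and Cnp. Map2 gave 1447, 784 and 593 in KO, against 1766 in wild type. Rbfox3 was also below wild type in all KO arrays, Tubb3 and Syt1 were above it in all, and Dcx and Snap25 in KO replicate 3 alone. In KO replicate 3, S100b, Gfap and Aldh1l1 were below wild type and Aqp4 was above it. Microglial, endothelial and mesenchymal markers passed in 1, 0 and 1 of 5. Their sums were 198 to 324 in KO and 200.4 in wild type for microglia, 179.6 to 213 in KO and 268 in wild type for endothelium, and 162 to 387 in KO and 172 in wild type for mesenchyme. The part of these splits in the results below was not tested.

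Transcripts of all 74 mitochondrial ribosomal protein genes were measured above background in all 4 arrays, and none differed between KO and wild type by the test. Signals of the chosen probe sets lay between 204 and 4482, and the median member stood at the 78.1 percentile of mean signal among the 7436 genes kept after the dimmest 40% were left out. Every member passed this filter. In limma, 0 of the 74 genes were called at an adjusted p under 0.05 (background over all kept genes 0%), and 0 had an unadjusted p under 0.05 (background 2.26%, or 168 genes). The lowest unadjusted p among the members was 0.136, and the lowest adjusted p was 0.99997. The spread was estimated from the KO arrays, since there was 1 wild-type array, and SEs of the members' log2 differences ran from 0.30 to 0.48. In bulk RNA, fewer cells of a type and less of an RNA per cell cannot be told apart.

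Differences of the members were small and went both ways. The KO mean was above wild type for 41 genes and below it for 33, and the median log2 difference was 0.044, against -0.00014 over all kept genes. The range was from -0.53 in Mrpl50 to 0.72 in Mrpl47. For 60 of the 74 genes, or 81.1%, the difference was within 0.25 log2 units, a factor of 1.19, where the background was 54.7%; the members were not matched to other genes in brightness for this count. The wild-type array lay below all 3 KO arrays for 10 members, or 13.5% (background 23.2%), above all 3 for 17, or 23.0% (background 20.6%), and among them for 47. Without KO replicate 1, wild type lay below both remaining KO arrays for 38 members, or 51.4% (background 35.7%). Without KO replicate 3 it lay above both for 29, or 39.2% (background 28.6%). Leaving out KO replicates 1, 2 and 3 in turn gave members' medians of 0.13, 0.024 and -0.027. The median over members of the SD among KO arrays was 0.20 log2 units, against 0.27 over all kept genes.

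The KO arrays differed among themselves in a common direction over many of these genes. Each KO array was set against the same wild-type array, so the 3 comparisons share it. KO replicate 1 was below wild type for 60 of the 74 genes (background 46.5%), with a median difference of -0.11. KO replicate 2 was above wild type for 42 (background 52.1%), with a median of 0.053, and KO replicate 3 was above for 51 (background 48.7%), with a median of 0.17. Over all kept genes these medians were 0.024, 0.022 and -0.016. Differences of at least 2-fold from wild type occurred in KO replicate 3 alone, for Mrpl47, Mrpl52 and Mrpl1 (4.05%, background 9.35%), and in neither KO replicate 1 nor KO replicate 2. KO replicate 3 was the highest of the 4 arrays for 38 members and KO replicate 1 the lowest for 42. The shares over all kept genes were not computed for these counts, so they cannot be set against a background.

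**Figure D1:**
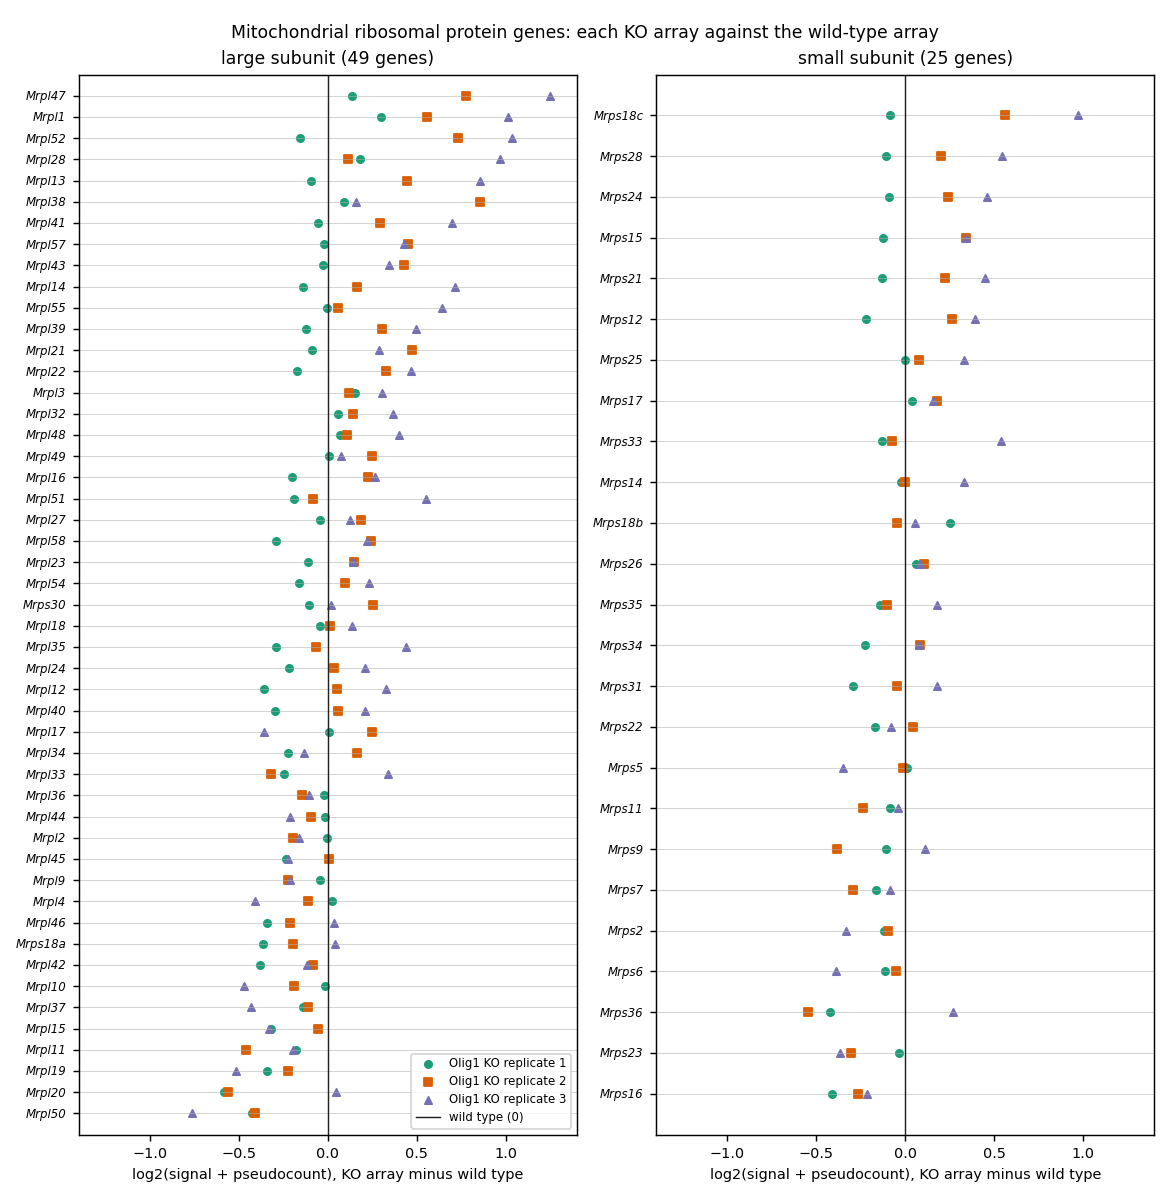
Log2 difference of each KO array (green circle, replicate 1; orange square, replicate 2; purple triangle, replicate 3) from the wild-type array (line at 0) for all 74 genes, with the 49 genes of the large subunit on the left and the 25 of the small subunit on the right, ordered by the mean of the KO arrays. Green circles lie left of the line for 60 genes and purple triangles right of it for 51.

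This order was compared with the pairs of arrays given by the 18S and spike controls. KO replicate 1 and wild type were both below KO replicates 2 and 3 for 36 of the 74 genes, or both above them for 9, while over all kept genes these shares were 24.8% and 25.8%. The SD over members of the log2 difference between 2 arrays was 0.16 for KO replicate 1 and wild type, 0.29 for KO replicate 2 and wild type, and 0.40 for KO replicate 3 and wild type. Among the KO arrays it was 0.26 for replicates 1 and 2, 0.32 for replicates 2 and 3, and 0.39 for replicates 1 and 3. Over all kept genes, the same 6 values were 0.36, 0.49, 0.61, 0.46, 0.51 and 0.65. The wild-type array was thus nearer to KO replicate 1 in these genes than any 2 KO arrays were to each other. KO replicate 2 was nearer to KO replicate 1 and to wild type than to KO replicate 3. The 18S and spike values given above put KO replicates 2 and 3 apart from KO replicate 1 and wild type, while the Actb ratio set KO replicate 3 apart. The part of these values was not tested.

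The large subunit joins amino acids and holds the exit tunnel, and 49 of the genes encode its proteins; these are the Mrpl genes with Mrps18a and Mrps30, whose products sit in the large subunit in spite of their names. Their median log2 difference was 0.054, with 29 KO means above wild type and 20 below. The small subunit reads the messenger RNA, and its 25 genes had a median of -0.022, with 12 above and 13 below. By array, the large-subunit medians were -0.11, 0.097 and 0.21 in KO replicates 1, 2 and 3, and the small-subunit medians were -0.12, -0.015 and 0.15. Both subunits thus held the same order among the KO arrays. The median of KO replicate 2 was above wild type in the large subunit and slightly below it in the small subunit. Mrps36 carries a small-subunit symbol, but its product is now known as a subunit of the 2-oxoglutarate dehydrogenase complex; without it, the small-subunit median over 24 genes was 0.030. The 44 genes with a bacterial homologue had a median of 0.030 and the 28 specific to mitochondria 0.055. The remaining pair are the S18 paralogues Mrps18a and Mrps18b, described with Mrps18c further on. No class held a called gene.

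Of the genes highest in KO, Mrpl47 had the largest difference. Its protein is the homologue of bacterial L29, beside the mouth of the exit tunnel. Mrpl47 gave 777, 1219 and 1699 in KO replicates 1, 2 and 3, against 706 in wild type. All 3 KO arrays were above wild type, but KO replicate 1 was closer to wild type than to the other KO arrays. The mean was 1232 ± 461 (SD, n = 3), which is 0.72 log2 units higher (SE 0.45, limma adjusted p = 0.99997). Mrpl1, whose bacterial homologue forms the stalk where spent tRNA leaves, gave 254, 308 and 426 in the KO arrays, against 204 in wild type. These also did not overlap, and the log2 difference was 0.62 (SE 0.37, limma adjusted p = 0.99997), with the lowest unadjusted p of all members. A second probe set of Mrpl1 gave 267, 278 and 259 in KO, against 226 in wild type, a difference of 0.23.

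In 3 other members of the large subunit KO replicate 3 was also the highest array. Mrpl52, a protein specific to mitochondria, gave 1439.9, 2673 and 3296 in KO, against 1605 in wild type (log2 difference 0.54, SE 0.48). Wild type lay between KO replicate 1 and the other KO arrays, and the SD of 0.62 log2 units over the KO arrays was the largest of all members. The other probe sets of Mrpl52 above background in all arrays gave smaller differences, of 0.19 and 0.26. Mrpl13, homologue of bacterial L13, gave 1977, 2879.6 and 3832 in KO, against 2113 in wild type (0.40, SE 0.42), again with wild type above KO replicate 1 alone. Mrpl28, homologue of bacterial L28, gave 1458, 1392 and 2528 in KO, against 1288 in wild type (0.42, SE 0.42). Its KO arrays were all above wild type, with replicate 3 far above the rest. The other probe sets of Mrpl28 gave differences of 0.00042 and -0.072, so the value of 0.42 was seen by 1 of its 3 probe sets.

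**Figure D2:**
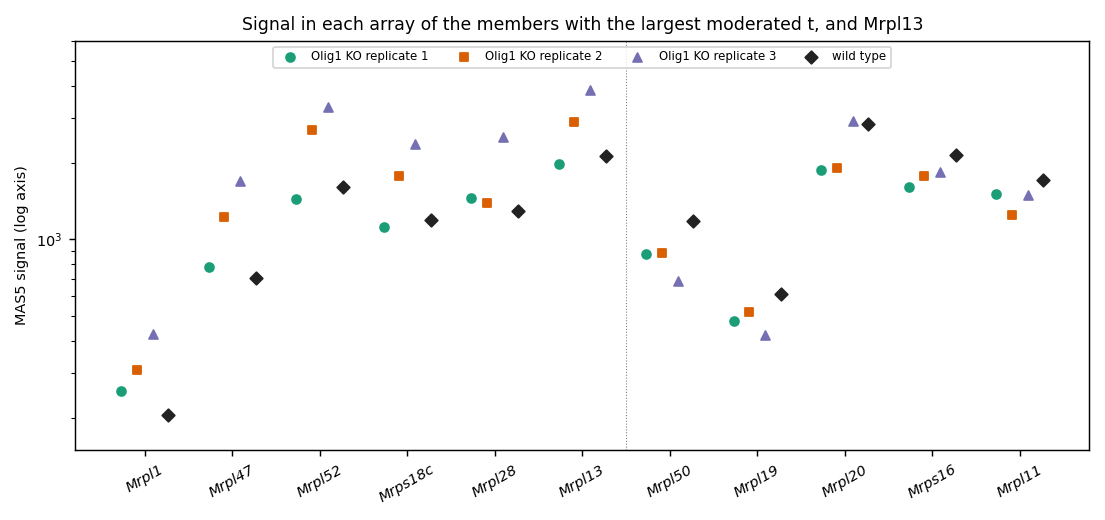
MAS5 signal on a log axis in each array (KO replicates 1 to 3 as green circles, orange squares and purple triangles, wild type as black diamonds) of the members with the 5 highest and 5 lowest moderated t and of Mrpl13, 1 probe set each. Left of the dotted line, KO replicate 3 is the highest array, as in Mrpl47 with 777, 1219 and 1699 in KO against 706 in wild type. Right of it, all KO arrays lie below wild type except for Mrpl20 in KO replicate 3.

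Of the genes lowest in KO, Mrpl50 had the largest difference. Mrpl50, a protein specific to mitochondria, gave 874, 883 and 689 in KO, against 1179.8 in wild type. All KO arrays were below wild type, with a mean of 815 ± 110 (SD, n = 3) and a difference in log2 of -0.53 (SE 0.32, limma adjusted p = 0.99997). Its other probe set gave 521, 449 and 479.6 in KO, against 451 in wild type, a difference of 0.093. The genotypes overlapped on this second probe set. Mrpl19, homologue of bacterial L19 at the interface between the subunits, gave 479, 519.6 and 422 in KO, against 611 in wild type (-0.36, SE 0.31). For this gene another probe set went the same way, with 549.6, 379.7 and 319 in KO, against 681 in wild type, a difference of -0.73. All KO arrays were below wild type on both.

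In Mrpl20, whose bacterial homologue is needed early in assembly of the large subunit, the arrays were split differently. It gave 1878, 1905 and 2911 in KO, against 2825 in wild type (-0.37, SE 0.37), so KO replicate 3 was level with wild type and the other KO arrays were below. Mrps16, a small-subunit protein whose loss causes a respiratory chain deficiency in humans, gave 1599, 1775 and 1837 in KO, against 2135 in wild type (-0.30, SE 0.31). Its KO arrays were all below wild type, with the widest gap in KO replicate 1.

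The groups by place in the ribosome were put together after the values had been seen. The stalk that recruits translation factors comprises Mrpl10, Mrpl11 and Mrpl12, with a median log2 difference of -0.23. Mrpl11, at the base of the stalk, gave 1509, 1240.5 and 1488 in KO, against 1710.4 in wild type (-0.28, SE 0.31), all KO arrays below. Its other probe sets above background in all arrays gave 0.080 and 0.083, so this direction was seen by the brightest probe set alone. Mrpl12, the stalk protein that touches the elongation factors and is also reported to bind mitochondrial RNA polymerase, gave 1779, 2376 and 2873 in KO, against 2291 in wild type (0.0051, SE 0.37). Wild type stood within the KO range. Mrpl10, which anchors Mrpl12, had a difference of -0.23 with all KO arrays below wild type.

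Around the peptidyl transferase centre, where peptide bonds form, Mrpl2, Mrpl3, Mrpl16 and Mrpl27 had a median of 0.091 and a range from -0.12 to 0.19. Mrpl3 gave 1199.6, 1172 and 1337 in KO, against 1079.9 in wild type (0.19, SE 0.31), and its second probe set gave 0.025. Along the exit tunnel, Mrpl17, Mrpl22, Mrpl23, Mrpl24, Mrpl45 and Mrpl47 had a median of 0.032, with Mrpl47 at 0.72 and the other members between -0.15 and 0.21. In the central protuberance, Mrpl38, Mrpl40, Mrpl46, Mrpl48 and Mrpl58 had a median of 0.057. Mrpl38 was the dimmest chosen probe set by mean and gave 249.9, 435 and 263 in KO, against 234 in wild type (0.37, SE 0.39). Here KO replicate 2 stood apart from the other KO arrays, which were near wild type.

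Further large-subunit genes came from the ends of the brightness range or had been fixed for their role. Mrpl37 was dim, at 396, 403 and 321 in KO, against 438 in wild type (-0.23, SE 0.32), with all KO arrays below. The probe sets with the highest mean signals were those of Mrpl42, Mrpl51 and Mrpl39, all proteins specific to mitochondria. Mrpl42 gave 3091, 3810.5 and 3727.5 in KO, against 4040.0 in wild type (-0.19, SE 0.32), all KO arrays below. Mrpl51 gave 2675, 2883 and 4482 in KO, against 3059.7 in wild type (0.090, SE 0.39), with KO replicate 3 alone above wild type. Mrpl39 gave 2485, 3338 and 3817 in KO, against 2703 in wild type (0.23, SE 0.36), while its other probe set gave 1492, 1544 and 1409 in KO, against 1768 in wild type (-0.25). The 2 probe sets of Mrpl39 therefore differed in sign. Mrpl41, reported as a growth suppressor outside the ribosome, gave 1743, 2222 and 2942 in KO, against 1811 in wild type (0.31, SE 0.38), and -0.12 on a second bright probe set. Mrps30, of the large subunit, gave 452, 585 and 493 in KO, against 488 in wild type (0.054, SE 0.32), with the groups overlapping.

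In the small subunit, the genes Mrps5, Mrps7, Mrps9, Mrps11, Mrps12, Mrps15 and Mrps17, homologues of bacterial proteins that bind ribosomal RNA, had a median of -0.12 and a range from -0.18 to 0.18. Mrps12, the homologue of the bacterial protein at the decoding centre that streptomycin resistance mutations alter, gave 732, 1030.4 and 1129 in KO, against 855 in wild type (0.15, SE 0.36). Wild type lay between KO replicate 1 and the other KO arrays. Mrps7, which starts assembly of the small-subunit head in bacteria, gave 1007, 919 and 1062 in KO, against 1129 in wild type (-0.18, SE 0.31), with all KO arrays below by a small margin.

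The 3 paralogues of bacterial S18 show how closely related members can differ on these arrays. Mrps18c, of the small subunit, gave 1123, 1769.8 and 2358 in KO, against 1195 in wild type (0.48, SE 0.44, limma adjusted p = 0.99997). Wild type was above KO replicate 1 and below the others. Mrps18b, also of the small subunit, gave 629, 508 and 546 in KO, against 526 in wild type (0.085, SE 0.31), so that KO replicate 1 was its highest array. Mrps18a, of the large subunit, gave 1199, 1350.4 and 1592 in KO, against 1549 in wild type (-0.17, SE 0.32). Wild type was within the KO range for all 3 genes.

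Nuclear genes for mitochondrial proteins often carry binding motifs of NRF1, of ETS family factors such as GABP, and of YY1 near their start sites. RefSeq promoters of GRCm38.p6, 250 bases before to 50 after the start of a gene, were at hand for 65 of the 74 members and for 27025 genes in all, and both strands were searched. The NRF1 motif GCGCATGCG (reverse CGCATGCGC) was in 7 member promoters, or 10.8%, against 1.95% of all genes. The ETS motif CCGGAAGT (reverse ACTTCCGG) was in 11, or 16.9%, against 4.31%. The YY1 motif AAGATGGCG (reverse CGCCATCTT) was in 7, or 10.8%, against 1.64%, and the E-box CACGTG, which reads alike on both strands and is bound by helix-loop-helix proteins such as MYC, was in 5, or 7.69%, against 8.09%. At least 1 of the first 3 motifs was in 25 promoters and none in 40. None of the 4 motifs contains another. A match describes letters and is not a measured site.

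The promoters of the S18 paralogues and of Mrpl52 are shown because the 3 paralogues hold different motifs and because Mrpl52 and Mrps18c, both with an ETS motif, had the same rank of arrays. Members whose promoter lacks that motif, such as Mrpl22, Mrpl39 and Mrps24, had this rank too. Among the other members with the ETS motif, Mrpl18 alone had it. Mrpl3, Mrpl27, Mrpl33, Mrpl43, Mrpl48, Mrpl51, Mrps22 and Mrps26 did not, so most members with this motif lacked the rank. A link between motif and rank was not tested. The printed promoters run 5′ to 3′ along the gene, with capitals at the motifs. That of Mrps18a (chr17:46110754-46111053, plus strand) has YY1 starting 11 bases after the start site. That of Mrps18b (chr17:35916391-35916690, minus strand) has NRF1 in reverse, 224 bases before it. That of Mrps18c (chr5:100798509-100798808, plus strand) has an E-box 163 bases before it, followed at once by ETS in reverse, and that of Mrpl52 (chr14:54426659-54426958, plus strand) has ETS in reverse 1 base after it.
Mrps18a: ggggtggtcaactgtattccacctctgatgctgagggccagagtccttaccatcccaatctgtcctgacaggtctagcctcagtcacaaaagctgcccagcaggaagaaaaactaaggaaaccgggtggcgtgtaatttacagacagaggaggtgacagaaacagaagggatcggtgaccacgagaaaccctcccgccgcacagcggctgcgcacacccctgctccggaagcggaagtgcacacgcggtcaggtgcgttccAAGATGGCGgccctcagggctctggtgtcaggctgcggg
Mrps18b: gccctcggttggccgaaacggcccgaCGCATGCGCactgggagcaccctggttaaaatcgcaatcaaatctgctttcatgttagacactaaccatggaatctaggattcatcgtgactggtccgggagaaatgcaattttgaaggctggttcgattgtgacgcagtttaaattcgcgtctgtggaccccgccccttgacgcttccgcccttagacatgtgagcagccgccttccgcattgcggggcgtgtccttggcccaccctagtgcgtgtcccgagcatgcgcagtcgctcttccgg
Mrps18c: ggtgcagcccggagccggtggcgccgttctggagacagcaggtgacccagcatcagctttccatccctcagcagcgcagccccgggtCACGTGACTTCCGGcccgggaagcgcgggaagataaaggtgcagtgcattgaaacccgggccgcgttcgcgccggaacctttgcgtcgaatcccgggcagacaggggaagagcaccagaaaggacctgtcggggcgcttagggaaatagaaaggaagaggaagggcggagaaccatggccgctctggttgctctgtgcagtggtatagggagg
Mrpl52: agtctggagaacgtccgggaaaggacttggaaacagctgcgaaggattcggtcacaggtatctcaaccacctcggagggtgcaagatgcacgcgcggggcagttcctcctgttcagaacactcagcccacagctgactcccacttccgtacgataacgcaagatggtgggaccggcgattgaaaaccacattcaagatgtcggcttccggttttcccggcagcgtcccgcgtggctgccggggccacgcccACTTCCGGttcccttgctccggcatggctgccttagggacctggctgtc

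Set against the array values, members with the NRF1 motif had a median log2 difference of 0.085 and those without it 0.044. With the ETS motif the median was 0.090 over 11 genes and without it 0.0065. With YY1 it was -0.12 over 7 genes and without it 0.070, and with the E-box it was -0.12 over 5 genes and without it 0.057. All these medians lay within 0.25 log2 units, and no promoter class held a called gene.

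Probe sets of a single gene often gave different values. Of the 74 genes, 33 had several probe sets, and 27 had several above background in all 4 arrays. Among these 27, the log2 differences of probe sets of the same gene lay a median of 0.35 apart, they differed in sign in 13 genes, and they were more than 0.5 apart in 4, Mrpl15, Mrps9, Mrpl44 and Mrpl50. The gap was largest in Mrpl15, homologue of bacterial L15, at 1.34. Its probe set 1434970_a_at gave 1964, 754 and 704 in KO, against 2327 in wild type, a difference of -1.18. The probe set 1434971_x_at, which stands for the gene by its higher mean, gave 1988, 2386 and 1968 in KO, against 2481 in wild type (-0.24, SE 0.31). On 1435232_x_at the gene gave 1644, 2079 and 2412 in KO, against 1816 in wild type, a difference of 0.15. The pair of KO replicates 2 and 3 was therefore low on 1 probe set of Mrpl15 and high on another.

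Mrps9, homologue of bacterial S9, gave 512, 419 and 598 in KO, against 552 in wild type (-0.13, SE 0.34) on its brightest probe set. On 1439210_at it gave 128, 209 and 295 in KO, against 110.5 in wild type, a difference of 0.78, with all KO arrays above. Mrpl44, a mitochondria-specific protein with a ribonuclease III fold, gave 719.7, 680.4 and 626 in KO, against 728 in wild type (-0.11, SE 0.30), but 418, 594 and 605 in KO, against 359 in wild type, on 1437391_x_at (0.55). The direction of these 4 genes depends on the probe set. Probe sets marked _x_at or _s_at may also bind other transcripts, and the transcripts that each one reads were not mapped here.

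**Figure D3:**
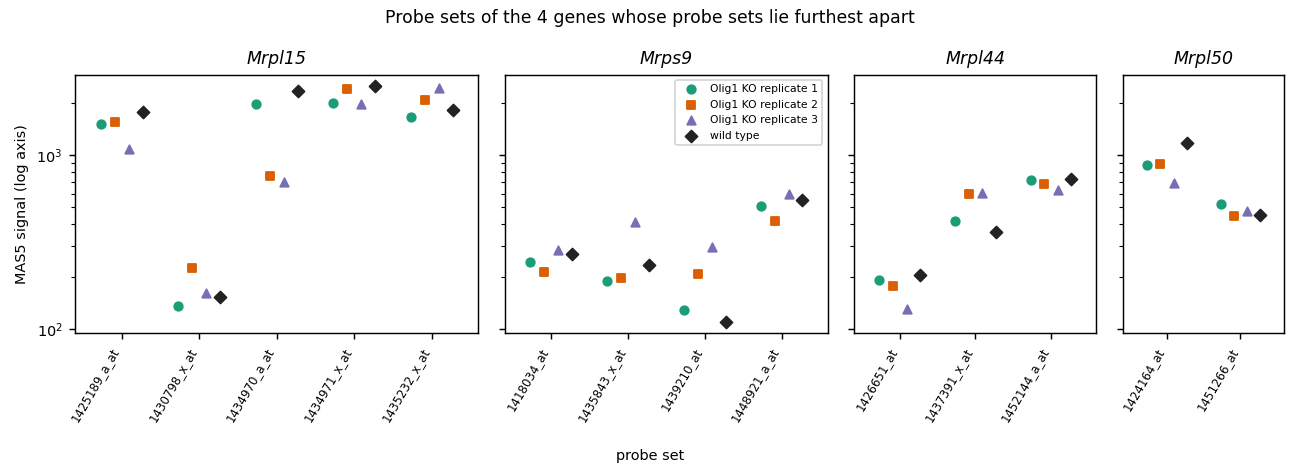
MAS5 signal on a log axis in each array (KO replicates 1 to 3 as green circles, orange squares and purple triangles, wild type as black diamonds) for the probe sets, above background in all arrays, of the 4 genes whose probe sets were more than 0.5 log2 units apart. On 1434970_a_at of Mrpl15 the signals are 1964, 754 and 704 in KO and 2327 in wild type, while on 1435232_x_at of the same gene KO replicate 3 is the highest array.

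None of the genes that act with the mitochondrial ribosome was called either. The translation factors had 10 kept genes and a median of 0.046. Among them Tufm, the elongation factor that brings tRNA to the ribosome, gave 379, 498 and 323 in KO, against 176 in wild type, which is 1.10 log2 units higher (SE 0.35, unadjusted p = 0.016 and limma adjusted p = 0.99997). All KO arrays were above wild type. Its other 2 probe sets were above background in 1 array each, so they give no second reading. Gatb, of the complex that makes glutaminyl-tRNA, had a difference of 0.36.

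Of the other lists, the aminoacyl-tRNA synthetases had 6 kept of 8 measured genes and a median of -0.028. The phenylalanyl enzyme Fars2 was at -0.36 and the arginyl enzyme Rars2 at 0.30. A second, dimmer probe set of Fars2, also above background in all arrays, gave 0.017. Mitoribosomal proteins without an Mrp symbol had 4 genes, among them Dap3, a GTP-binding small-subunit protein also known from apoptosis, which gave 1780.3, 1374 and 1367 in KO, against 2118 in wild type (-0.50, SE 0.33), all KO arrays below. Ptcd3, another small-subunit protein, had a difference of 0.24. The assembly and ribosomal RNA modification factors had 15 kept of 16 genes and a median of -0.033. Ngrn, which helps to maintain the large mitochondrial ribosomal RNA, gave 512, 651 and 641 in KO, against 405 in wild type (0.54, SE 0.32), and Rpusd4, a pseudouridine synthase that acts with it on mitochondrial ribosomal RNA, gave 145, 196 and 233 in KO, against 122 in wild type (0.57, SE 0.36). In both genes all KO arrays were above wild type, with KO replicate 1 the nearest to it.

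Mitochondrial transcription and messenger stability genes had 12 members and a median of -0.042. Both named ones belong to the FASTK family of mitochondrial RNA-binding proteins. Fastk gave 379.7, 232 and 205 in KO, against 425 in wild type (-0.66, SE 0.40), and Tbrg4 gave 481, 478 and 319 in KO, against 667 in wild type (-0.65, SE 0.36). The regulators of nuclear genes for mitochondria had 9 members and a median of 0.049. Nrf1, which encodes the factor of the NRF1 motif, gave 179, 374 and 335 in KO, against 170.2 in wild type (0.69, SE 0.45), with KO replicate 1 level with wild type. Its other probe sets gave differences of 0.18 and -0.10. Ppargc1b, a coactivator of these genes, had a difference of -0.34.

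The proteins that depend on this ribosome's products, the nuclear-encoded subunits of the respiratory chain and ATP synthase, had the same order of arrays, with medians further apart. Of 79 such genes 77 were kept, with a median log2 difference of 0.087 and with medians of -0.23, 0.18 and 0.38 in KO replicates 1, 2 and 3. KO replicate 1 was below wild type in 73 of the 77 and KO replicate 3 above it in 66. Cox8b, a cytochrome oxidase subunit of heart and muscle, was apart from them at 526, 544 and 553 in KO, against 1308 in wild type (-1.25, SE 0.30, unadjusted p = 0.0039 and limma adjusted p = 0.99997). Its KO arrays were close to one another. Ndufb1, of complex I, gave 297, 302 and 410.4 in KO, against 186 in wild type (0.79, SE 0.34, unadjusted p = 0.049).

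The cytosolic ribosomal proteins had the largest median difference of the lists measured here. Of 48 genes 45 were kept, with a median log2 difference of 0.46, and medians of -0.15, 0.63 and 0.91 in KO replicates 1, 2 and 3. KO replicate 3 was above wild type in 44 of the 45, and KO replicate 1 was below it in 37. Rps15 gave 10545, 18472 and 20280.5 in KO, against 9944 in wild type (0.67, SE 0.43), and Rpl14 gave 228, 315 and 353 in KO, against 160.3 in wild type (0.82, SE 0.35, unadjusted p = 0.052). None of the cytosolic ribosomal genes was called. The mitochondrial ribosomal genes thus had a median difference of 0.044, beside 0.087 for the respiratory chain and 0.46 for the cytosolic ribosome. These lists share all 4 arrays, and differences between them were not tested.

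**Figure D4:**
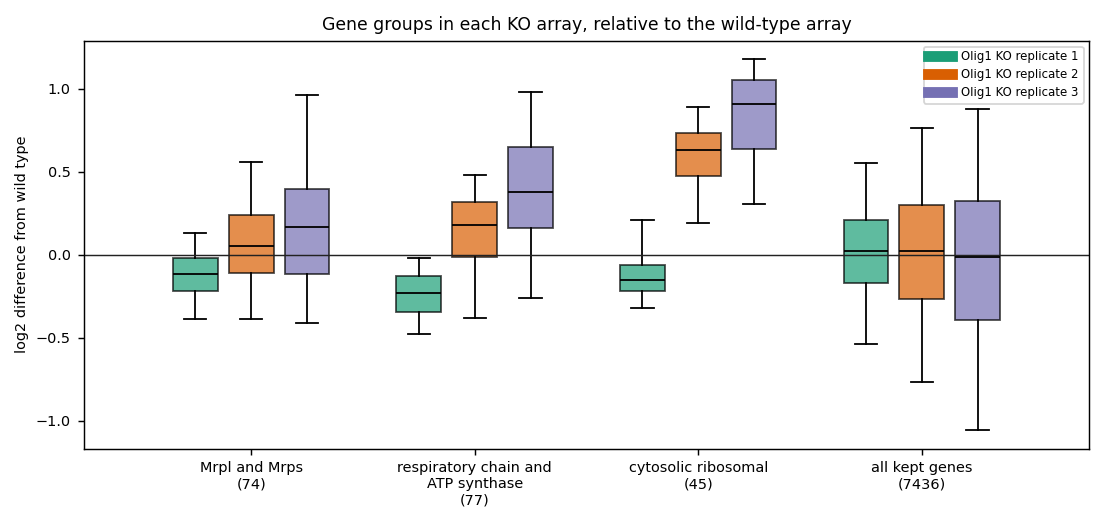
Log2 difference of each KO array from the wild-type array (replicates 1 to 3 in green, orange and purple) for 4 groups of genes; the line in a box is the median, the box spans the middle quartiles, and the whiskers reach the 5th and 95th percentiles. In the first 3 groups the median is lowest in KO replicate 1 and highest in KO replicate 3, at -0.11 and 0.17 for Mrpl and Mrps, while over all kept genes it is 0.024 and -0.016.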

How the data were processed

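Each of 4 mouse samples was hybridised to 1 Affymetrix expression array. Per the submitters' processing notes, the authors used MAS5, and the intensity of every probe set as deposited is its signal without a log. The MAS5 version and target were not given in the sources used here. The trimmed means, with 2% of probe sets removed from each tail, were about 500.2 in every array as deposited, so each array had been scaled by 1 factor. The table held 22690 probe sets, 64 of them controls; the platform annotation gave 1 symbol to 20393, several to 691 and none to 1606. Symbols were updated through a RefSeq table of GRCm38.p6, which lacked 29 genes' identifiers.

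Signals were turned into log2(signal + 14.4), the pseudocount being 0.1 times the median of all values, a scale that understates the change of dim genes. The probe set brightest in mean log2 signal stood for its gene, and the dimmest 40% of genes were dropped. The test of KO against wild type was two-sided, by lmFit and eBayes of limma 3.58.1 in R 4.3.3 on all kept genes, and p-values were adjusted by Benjamini-Hochberg and called under 0.05. Because 1 array was wild type, the variance rests on the KO arrays (2 residual and 5.23 prior degrees of freedom) and is assumed to hold for wild type too. Precision is limited by the number of arrays.

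The members, lists and tests were chosen with earlier results of these data known. Genes were named by a rule that took the 5 highest and 5 lowest members by moderated t, the 3 brightest and 3 dimmest, the 4 with the largest SD over KO arrays, those whose probe sets above background were more than 0.5 log2 units apart, 10 members for their role, 2 genes of each other list, and Olig1. Members of the groups by place in the ribosome, Mrps36 and Mrpl10 were named outside it, after their values were seen. Other settings for scaling, pseudocount, filter, probe set choice and eBayes were tried, and each KO array was left out in turn. Blocking on the array pair was chosen after seeing the data.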

Additional observations from a re-analysis of the deposited data

How the results depend on the processing

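No Mrpl or Mrps gene was called under any of the 14 alternatives in limma, and over all kept genes the count was 0 except without KO replicate 1, which gave 2 (range over the arrays left out 0 to 2). The members' median log2 difference was between -0.027 and 0.13 over the arrays left out and -0.11 with the array pair as a block, a fit that reduces to KO replicate 1 minus wild type. The median over all kept genes was 0.024 with median centring, 0.036 with no filter, 0.024 with the block, and from -0.0085 to 0.022 over the arrays left out. Wild type was above all KO arrays for 32 of 127 probe sets when each was fitted alone (25.2%, against 20.9% of all probe sets) and below them for 20 (15.7%, against 24.9%). Over the arrays left out it was above for 19 to 29 genes (25.7% to 39.2%, against 26.0% to 34.9% of all kept genes) and below for 11 to 38 (14.9% to 51.4%, against 28.2% to 35.7%). Of 378 values of 27 members, 339 kept their direction and 39 turned, none of them called in either setting. The filter and eBayes settings leave a member's log2 difference as it was, so those values could not turn. The same holds for the mean of probe sets in genes with 1 probe set. The count of kept directions is therefore no measure of robustness. On other probe sets of the same gene, the log2 difference turned to -0.42 in Mrpl1, -0.32 in Mrpl52, -0.072 in Mrpl28, 0.093 in Mrpl50, 0.080, 0.083 and 0.84 in Mrpl11, 0.13, 0.15 and 0.0030 in Mrpl15, 0.55 in Mrpl44, 0.080 and 0.78 in Mrps9, -0.25 in Mrpl39, -0.21 in Mrpl38, -0.12 in Mrpl41 and -1.23 in Mrpl3. With the mean of probe sets it turned to 0.18 in Mrpl11, 0.050 in Mrpl44, 0.15 in Mrps9, -0.014 in Mrpl39 and -0.34 in Mrpl3. Without probe sets that carry a letter mark (_a_at, _s_at or _x_at) it turned to -0.25 in Mrpl39 and -0.12 in Mrpl41. The brightest probe sets of Mrpl39 and Mrpl41, dropped by that setting, are marked _a_at. With the block it turned to -0.16 in Mrpl52, -0.088 in Mrps18c, -0.095 in Mrpl13, -0.19 in Mrpl51, -0.12 in Mrpl39, -0.36 in Mrpl12, -0.22 in Mrps12, -0.054 in Mrpl41 and -0.11 in Mrps30, and with quantile normalization to -0.0085 in Mrpl12. Over the arrays left out it ran from -0.25 to 0.0031 in Mrps9, -0.14 to 0.23 in Mrpl51, -0.15 to 0.19 in Mrpl12 and -0.046 to 0.13 in Mrps30. The cause was not tested, apart from the fewer arrays or probe sets that an alternative uses by its construction. Nearness to background limits dim probe sets: those that gave -0.42 in Mrpl1, -1.23 in Mrpl3 and 0.84 in Mrpl11 were above it in 1, 1 and 2 arrays. No paired analysis was possible because the labels give the wild-type array no number shared with a KO array. The array pair above was taken from the data, but the sample titles hold the same split. In them, KO replicate 1 and wild type carry no number, unlike the other KO arrays. What that number means is not stated.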
